A study of Mus musculus with 12 samples.

Results

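The 7 genes described here, Nphs1, Magi2, Cd2ap, Podxl, Ptpro, Synpo and Wt1, code for proteins of the podocyte, the cell that covers the outer face of the glomerular capillaries. They were taken by symbol, as known podocyte and slit diaphragm genes, with earlier results of these data in view, and are 7 of the 23420 genes in the count table. All 7 had a row and passed the filter on low counts, which left 11664 genes for testing. The RNA came from 12 kidneys of male C57BL/6J mice, sequenced as stranded mRNA libraries. By the study's methods, the median part of each kidney went to histology and the rest was frozen for RNA and protein. The 4 controls were kidneys removed by nephrectomy, as the study's methods describe them, although the labels carry the same treatment text for all 12 kidneys, 20 min of clamping of the renal pedicle and 24 h of reperfusion. The other 8 kidneys were ischemic, 4 from conscious mice and 4 from anaesthetised mice, but the labels contradict themselves, between title and group field, on which is which. They are therefore called set A, whose titles say anaesthetised and whose group field says conscious, and set B, for which it is the reverse, and no direction is given for anaesthesia. The study compared them to learn what ischemia, and anaesthesia during it, change in kidney gene expression. The labels describe 4 mice per group, so the p-values rest on the spread between 4 kidneys.

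Podocytes send out interdigitating foot processes that are bridged by the slit diaphragm, a specialised junction that, with the basement membrane, holds back plasma protein. Nephrin, the product of Nphs1, forms the extracellular bridge. It is held by the scaffolds Magi2 and Cd2ap, and signals to an actin cytoskeleton organised by synaptopodin (Synpo). Podocalyxin (Podxl) is a charged sialomucin that keeps the processes apart, Ptpro is a receptor tyrosine phosphatase of the podocyte surface, and Wt1 is the transcription factor that maintains podocyte identity. Some of these genes are not restricted to podocytes. Cd2ap and Magi2 are used in many epithelia, Podxl is made by vascular endothelium, and Wt1 is present in parietal epithelial cells of the glomerulus.

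In the mm10 genome (GRCm38, GENCODE annotation), Nphs1 lies at chr7:30458315-30487223 and Magi2 at chr5:19227036-20704792, both on the plus strand. Cd2ap lies at chr17:42792951-42876665 and Podxl at chr6:31519488-31563981, both on the minus strand. Ptpro (chr6:137252319-137463233) and Wt1 (chr2:105126529-105173616) are on the plus strand. Promoter windows of 300 bases, from 250 bases before to 50 after the RefSeq start (GRCm38.p6), were at hand for Cd2ap, Ptpro, Nphs1 and Magi2. The first 3 are shown, read 5′ to 3′ on the gene's strand, because Cd2ap was the member with the largest called change and Ptpro and Nphs1 were the members with the lowest levels. Capitals mark matches to GTGGGAG, a core of the site bound by WT1, on either strand (CTCCCAC is the same core on the other strand).

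Cd2ap (chr17:42876375-42876674, minus strand): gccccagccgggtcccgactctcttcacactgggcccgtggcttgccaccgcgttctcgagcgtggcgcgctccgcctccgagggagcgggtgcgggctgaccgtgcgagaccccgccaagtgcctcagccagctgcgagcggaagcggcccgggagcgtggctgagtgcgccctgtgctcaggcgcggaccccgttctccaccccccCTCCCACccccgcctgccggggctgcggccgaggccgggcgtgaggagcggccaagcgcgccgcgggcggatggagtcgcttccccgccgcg

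Ptpro (chr6:137252049-137252348, plus strand): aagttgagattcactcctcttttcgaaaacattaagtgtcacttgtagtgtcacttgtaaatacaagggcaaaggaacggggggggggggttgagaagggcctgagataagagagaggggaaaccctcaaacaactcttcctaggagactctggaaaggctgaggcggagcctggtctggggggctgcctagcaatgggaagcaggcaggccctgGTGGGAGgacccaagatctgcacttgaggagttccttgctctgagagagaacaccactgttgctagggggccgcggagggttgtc

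Nphs1 (chr7:30459808-30460107, plus strand): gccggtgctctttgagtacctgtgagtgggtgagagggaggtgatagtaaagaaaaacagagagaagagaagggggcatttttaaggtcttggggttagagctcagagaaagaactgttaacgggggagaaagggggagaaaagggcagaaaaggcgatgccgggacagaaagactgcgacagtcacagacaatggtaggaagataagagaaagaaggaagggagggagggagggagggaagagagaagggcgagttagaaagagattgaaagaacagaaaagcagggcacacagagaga

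The Cd2ap window had a GC content of 77.0% and held 41 CpG dinucleotides, which placed its GC content at percentile 97.8 of the 32851 RefSeq promoter windows of the same length. The Ptpro and Nphs1 windows were near the middle of that range, at 54.7% GC with 5 CpG and at 49.7% GC with 6 CpG. The median window had 52.7% GC and 7 CpG. The core GTGGGAG occurred once in the Cd2ap window, from base 209, and once in the Ptpro window, from base 216. It did not occur in the windows of Nphs1 or Magi2, and 9.73% of all windows held it. The related core GCGTGGG, searched on both strands and able to overlap GTGGGAG by its last 5 letters, occurred in the first of the 2 Magi2 windows alone, against 5.04% of all windows. The E-box CANNTG occurred in the Cd2ap, Ptpro and Magi2 windows and in 72.3% of all windows. Such matches describe the letters of these windows and nothing more.

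Levels of different genes are compared per length, in RPKM (reads scaled to library size and to kilobases of merged exon). In the controls, Podxl had the highest level of the 7, at 12.8 ± 1.32 RPKM (SD, n = 4). Magi2 followed at 8.08 ± 0.61, Wt1 at 6.82 ± 1.29 and Synpo at 5.50 ± 1.21 RPKM. Podxl did not overlap Magi2 in any control kidney, while Magi2 and Wt1, and Wt1 and Synpo, overlapped. Cd2ap stood lower at 2.78 ± 0.53 RPKM, and Ptpro and Nphs1 were lowest at 0.918 ± 0.77 and 0.158 ± 0.11 RPKM, with overlapping ranges. The order of the upper genes depends on the length used. With the longest transcript in place of the merged exons, Magi2 came first at 13.94 RPKM, followed by Wt1 at 13.66, Podxl at 13.02, Synpo at 10.16 and Cd2ap at 7.87. The podocyte markers Nphs1, Podxl, Synpo, Wt1, Ptpro and Cdkn1c all had counts in each group, so the podocyte was represented in the RNA of all 3 groups.

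After ischemia, 4 of the 7 genes rose and none fell. Cd2ap, Podxl, Synpo and Wt1 were higher in set A and in set B, while Magi2, Ptpro and Nphs1 did not pass the test in either set. These calls are from edgeR's quasi-likelihood F-test on raw counts, with adjusted p-values over all 11664 genes and a threshold of 0.05. Over all genes tested, 22.3% were called in set A, 10.5% as higher, and for set B these shares were 22.8% and 10.9%. The median log2 fold change of the 7 genes was 0.74 for set A and 0.68 for set B, beside −0.02 in each set over all genes tested. With the 2 sets averaged, 8 ischemic kidneys against 4 controls, the same 4 genes were called, with a median of 0.76 over the 7, where 26.4% of all genes tested were called and 12.2% as higher. With 1 kidney left out, the called members numbered 2 to 4 in set A, 1 to 4 in set B and 3 to 4 with both averaged. Both sets are compared with the same 4 controls, so their values are not independent of each other. The study's methods describe surgery to place the clamp before ischemia, while the controls were kidneys removed by nephrectomy. Effects of that surgery and of ischemia cannot be told apart here. In bulk RNA, fewer cells of a type and less RNA per cell cannot be told apart, and the same holds for more.

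**Figure D1:**
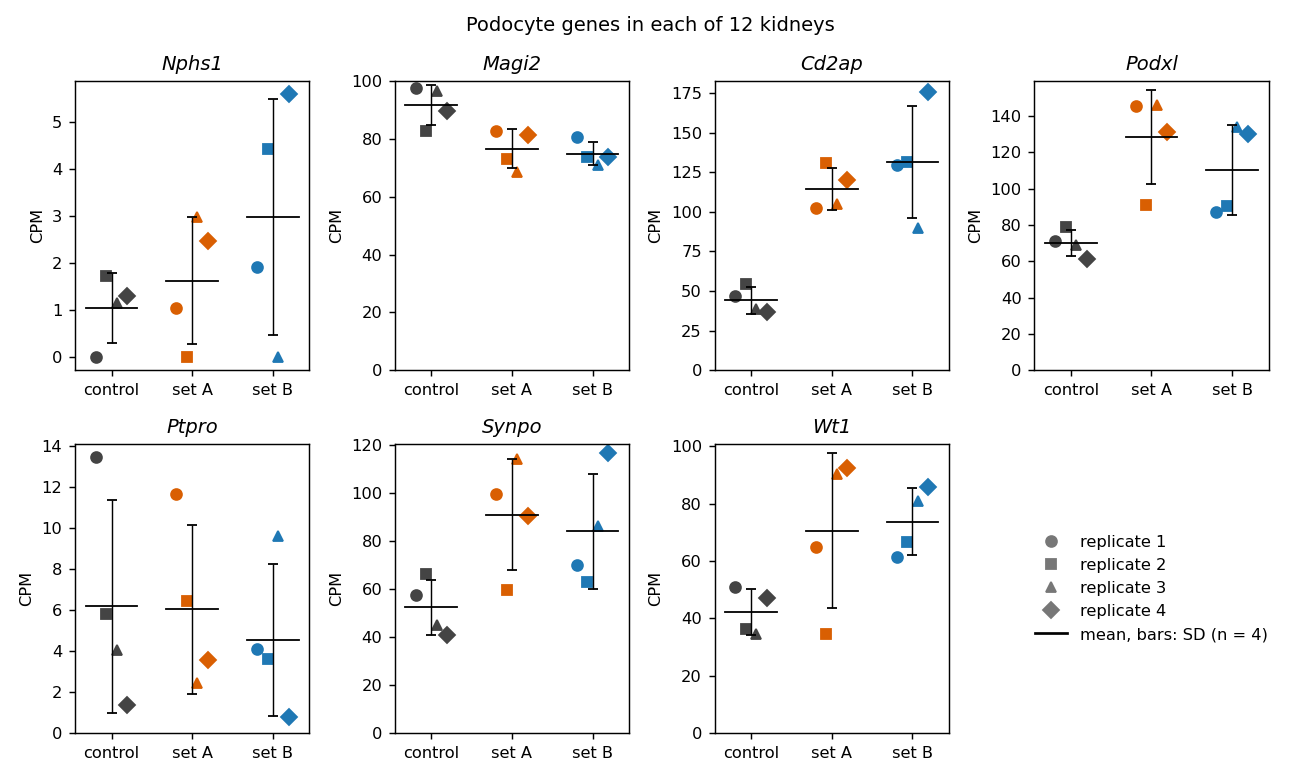
Normalised read count (CPM) of each of the 7 podocyte genes in each of the 12 kidneys, by group; each symbol is 1 kidney, shaped by its replicate number, with the group mean and SD. Cd2ap and Podxl lay above the controls in all 8 ischemic kidneys, Magi2 in the ischemic kidneys lay level with or below the lowest control, and Nphs1 and Ptpro scattered widely in every group.

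Cd2ap, the adaptor that ties nephrin to the actin machinery, showed the largest called change. The control kidneys held 46.8, 54.8, 38.6 and 36.5 CPM, the counts scaled to library size by TMM. The kidneys of set A held 102.5, 130.7, 105.2 and 120.4 CPM, and those of set B held 129.4, 131.4, 89.6 and 175.6 CPM. Even the lowest ischemic kidney, replicate 3 of set B, lay above the highest control. The log2 fold change was 1.38 (SE 0.19, edgeR adjusted p = 2.33e-05) in set A and 1.57 (SE 0.20, adjusted p = 5.29e-06) in set B. With the 2 sets averaged it was 1.48 (SE 0.18), a fold of 2.78. The two-sided exact permutation test of the CPM gave p = 0.0286 in each set, which is the smallest value that 4 kidneys against 4 allow. Cd2ap passed the threshold under each alternative setting and with each single kidney left out. Through this rise, Cd2ap moved up in the order of levels, from 2.78 RPKM in the controls to 7.23 in set A and 8.29 in set B, above the means of Magi2, 6.75 and 6.60 RPKM, with overlapping ranges in both sets.

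Podxl, the sialomucin of the foot process surface, rose less than Cd2ap. Per merged exon it had the highest level of the 7 in every group, but with the longest transcript as length it stood below Magi2 and Wt1 in the controls and, in set B, at 20.49 RPKM below Wt1 (23.86) and Cd2ap (23.44). It stood at 71.2, 78.8, 69.0 and 61.2 CPM in the controls and at 145.6, 90.7, 146.3 and 131.2 CPM in set A. In set B it stood at 87.1, 90.2, 133.7 and 129.9 CPM. No ischemic kidney overlapped the controls, but replicate 2 of set A and replicates 1 and 2 of set B were well below the other 5. The log2 fold change was 0.87 (SE 0.19, edgeR adjusted p = 0.00153) in set A and 0.65 (SE 0.19, adjusted p = 0.0142) in set B, and 0.76 (SE 0.17), a fold of 1.70, with both sets averaged. In set B the call was lost without control replicate 4 (adjusted p = 0.0526) or without set B replicate 3 (adjusted p = 0.0684).

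Synpo, the gene of chromosome 18 for the actin-binding protein of the foot process, had 57.4, 66.2, 45.1 and 41.0 CPM in the controls. Set A held 99.4, 59.6, 114.3 and 90.5 CPM, and set B held 69.9, 62.9, 86.5 and 116.8 CPM. One kidney of each set, both times replicate 2, lay within the range of the controls. The log2 fold change was 0.80 (SE 0.23, edgeR adjusted p = 0.0154) in set A, 0.68 (SE 0.23, adjusted p = 0.0375) in set B and 0.74 (SE 0.20, adjusted p = 0.00963) with both averaged. The exact permutation test gave p = 0.0571 in each set and 0.0162 for the 8 kidneys against 4. The call in a single set depended on single kidneys: in set A it was lost in 3 of 12 fits with 1 kidney left out, with adjusted p up to 0.0629, and in set B in 6 of 12, with adjusted p up to 0.137.

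Wt1, the transcription factor of the mature podocyte, showed a rise of similar size. Its CPM were 50.9, 36.2, 34.7 and 47.1 in the control kidneys. Set A had 64.9, 34.6, 90.5 and 92.6 CPM, and set B had 61.3, 66.7, 80.9 and 86.0 CPM. Set B did not overlap the controls, whereas set A did, since its replicate 2 was as low as the lowest control. The log2 fold change was 0.74 (SE 0.25, edgeR adjusted p = 0.0400) in set A and 0.80 (SE 0.25, adjusted p = 0.0260) in set B. Averaged over both sets it was 0.77 (SE 0.23, adjusted p = 0.0137), a fold of 1.71. The exact permutation test gave p = 0.143 in set A, while set B had 0.0286, the smallest it allows. For set A the call was lost with limma-trend (adjusted p = 0.0665) and in 7 of 12 fits with 1 kidney left out, in set B in 4 of 12. With both sets averaged it was lost without control replicate 2 (adjusted p = 0.0538) or 3 (adjusted p = 0.0611).

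Magi2, the membrane-associated guanylate kinase scaffold under nephrin, was the one member with values below the controls in most ischemic kidneys, but it did not pass the test. It stood at 97.8, 82.8, 96.5 and 89.6 CPM in the controls, at 82.8, 73.2, 68.7 and 81.6 CPM in set A and at 80.6, 73.9, 71.1 and 73.9 CPM in set B. Set B lay wholly below the controls, and replicate 1 of set A equalled the lowest control to within 0.1 CPM. The log2 fold change was −0.26 (SE 0.14, edgeR adjusted p = 0.242) in set A and −0.29 (SE 0.14, adjusted p = 0.172) in set B. For both sets averaged it was −0.28 (SE 0.12), with an unadjusted p of 0.0385 and an adjusted p of 0.114 from edgeR. The exact permutation test for this gene alone gave p = 0.0571 in set A, 0.0286 in set B and 0.00808 for the 8 kidneys against 4. With a coefficient of variation of at most 8.82% in each group, Magi2 was the steadiest member.

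Nphs1 and Ptpro varied so much between kidneys of one group that a change of the size seen in the other members was not detectable. Nphs1 had 0, 1.72, 1.16 and 1.31 CPM in the controls, 1.05, 0, 2.97 and 2.47 CPM in set A and 1.92, 4.43, 0 and 5.59 CPM in set B. One kidney of each group had no Nphs1 read at all, which allows up to 0.144 CPM in control replicate 1, 0.128 in set A replicate 2 and 0.145 in set B replicate 3 (3 counts, counting error only), while the other 9 kidneys held between 30 and 135 reads. Its log2 fold change was 0.63 (SE 1.62, edgeR adjusted p = 0.875) in set A and 1.50 (SE 1.65, adjusted p = 0.620) in set B, with 95% confidence intervals from −2.77 to 4.03 and from −1.95 to 4.96. Such zeros were usual at this level in the table. Of 1815 tested genes with a mean of 0.5 to 2 CPM in the controls, 66.4% had a control kidney at 0.

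Ptpro, with more reads, spread nearly as widely. It held 13.5, 5.80, 4.05 and 1.36 CPM in the controls, 11.7, 6.46, 2.45 and 3.55 CPM in set A and 4.08, 3.61, 9.62 and 0.762 CPM in set B. The groups overlapped fully, and the log2 fold change was −0.03 (SE 0.78, edgeR adjusted p = 0.988) in set A and −0.45 (SE 0.78, adjusted p = 0.790) in set B. The 95% confidence intervals ran from −1.66 to 1.61 and from −2.09 to 1.20. Its coefficient of variation in the controls was 84.3%, where the median of the 2588 tested genes with 3 to 12 CPM in the controls was 41.7%.

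**Figure D2:**
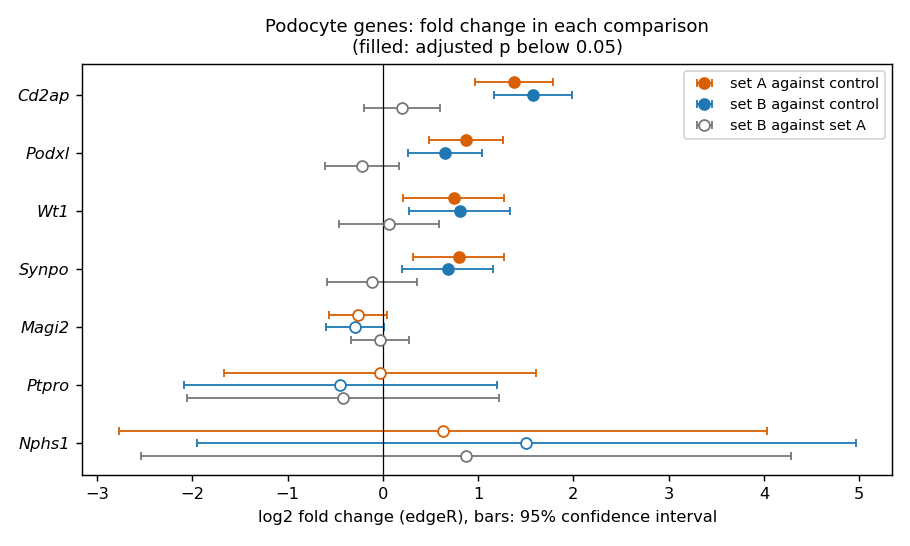
Log2 fold change of each gene (x axis) for each ischemic set relative to control and for one ischemic set relative to the other (B minus A), with 95% confidence intervals from edgeR; filled points passed the adjusted p threshold of 0.05. Cd2ap, Podxl, Wt1 and Synpo lie to the right of 0 in both sets, all points of B minus A are open, and the intervals of Ptpro and Nphs1 span several log2 units.

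None of the 7 genes differed between the ischemic sets. In set B against set A, 0 of 7 passed edgeR's test (adjusted p = 0.999687 for each), and 0 had an unadjusted p under 0.05. Over all genes tested, 0.00857% were called, which is 1 gene, with 587 at an unadjusted p under 0.05. DESeq2 called 29 genes and limma-trend 0, and neither called a member. The log2 difference was 0.20 for Cd2ap (95% confidence interval −0.20 to 0.60), −0.22 for Podxl (−0.61 to 0.17), −0.12 for Synpo (−0.59 to 0.36), 0.06 for Wt1 (−0.46 to 0.59) and −0.03 for Magi2 (−0.33 to 0.27). For Ptpro and Nphs1 the intervals, from −2.06 to 1.22 and from −2.54 to 4.29, leave differences of more than 1 log2 unit possible in either direction.

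The 4 genes that rose did not all follow each other from kidney to kidney. After the group means were subtracted from log2 CPM, Podxl and Synpo had a correlation of 0.897 over the 12 kidneys, which ranked Synpo at place 5 among 11663 genes by its correlation with Podxl. Wt1 followed Podxl at 0.661, place 324 of the 11663, and Synpo at 0.627. Markers listed for other cells had correlations with Podxl as high, among them Cdh5 (0.679), Krt19 (0.676) and Umod (0.664). Cd2ap did not move with Podxl within groups (−0.114), although over all kidneys, group differences included, the pair had a correlation of 0.709. Replicate 2 of set A shows this best. It was the lowest of its set in Podxl, Synpo and Wt1 and had no Nphs1 read, yet it had the highest Cd2ap of the set. Genes of the podocyte's transcription factors also varied with Podxl within groups, with a median correlation of 0.53 and a range from 0.37 to 0.77 over 7 genes, beside −0.04 over all genes. The median was 0.06 for the slit diaphragm partners, 0.17 for the podocyte-enriched secreted, membrane and signalling genes, 0.07 for the other 6 members and 0.43 for 3 fibroblast markers. With Cd2ap in place of Podxl, the median over the 7 transcription factors was 0.10. These correlations are descriptions over 12 kidneys, in which the genes compared come from the same libraries, and how much each kidney's RNA came from glomeruli was not measured.

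**Figure D3:**
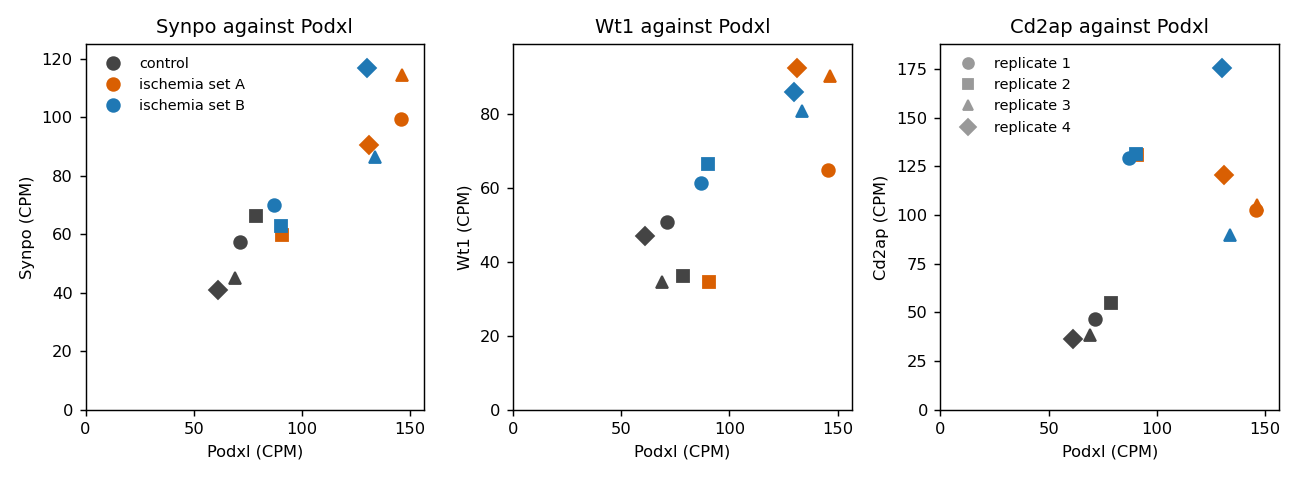
CPM of Synpo, Wt1 and Cd2ap (y axes) against CPM of Podxl (x axis) in the 12 kidneys, coloured by group and shaped by replicate. Synpo and Wt1 rise with Podxl within the ischemic sets, whereas Cd2ap separates the controls from the ischemic kidneys and shows no rise with Podxl among the ischemic kidneys.

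By the correlation of log2 CPM over the 12 kidneys, the 4 genes most like the mean pattern of the 7 members, out of 11657 others, were Btg2 (0.918), Filip1l (0.914), Kcnc2 (0.908) and Blcap (0.906). Btg2, an antiproliferative immediate early gene, went from a mean of 9.53 CPM in the controls to 34.0 in set A and 28.5 in set B. Filip1l went from 20.1 to 37.3 and 35.3 CPM.

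Among 17 further genes of the slit diaphragm and its signalling partners, 16 were tested, and 5 rose and none fell in each set, where 22.3% (set A) and 22.8% (set B) of all genes tested were called. They were Iqgap1, Fat1, Prkci, Cask and Tjp1, which code for a scaffold of actin and junction proteins, a giant protocadherin, an atypical protein kinase C of the polarity complex, a guanylate kinase scaffold and the tight junction protein ZO-1. Iqgap1 went from 264.0 ± 24.5 CPM in the controls (SD, n = 4) to 767.4 ± 109.7 in set A and 854.0 ± 205.7 in set B. With both sets averaged, the log2 fold change was 1.62 for Iqgap1, 0.83 for Fat1, 0.81 for Prkci, 0.53 for Cask and 0.49 for Tjp1. All 5 are used by many epithelia besides the podocyte. The median log2 fold change of the 16 was 0.14 for set A and 0.57 for set B, below that of the 7 members in both. In set A the count was 3 without control replicate 2, control replicate 3 or set A replicate 4.

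Kirrel, which codes for NEPH1, the sister molecule of nephrin in the junction, did not pass the test. It was at 6.36 ± 4.44 CPM in the controls (SD, n = 4), and at 14.2 ± 3.71 and 12.3 ± 7.70 CPM in the ischemic sets A and B. Its log2 fold change was 1.16 (edgeR adjusted p = 0.116) in set A and 0.95 (adjusted p = 0.208) in set B. Kirrel2, next to Nphs1 on chromosome 7, had no read in any of the 12 kidneys.

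In the 12 regulators of foot process actin, 6 rose in each set, and Arhgap24 fell in set A. Among all genes tested, 10.5% (set A) and 10.9% (set B) were called as higher, and 11.7% as lower in set A. The 6 were Actn4, Inf2, Arhgdia, Myh9, Ezr and Cfl1. Inf2, a formin that is mutated in inherited podocyte disease, went from 16.7 ± 5.94 CPM (SD, n = 4) to 81.7 ± 24.0 in set A and 63.1 ± 10.8 in set B. Actn4, the actin-bundling protein alpha-actinin 4, changed least of the 6, with a log2 fold change of 0.61 (SE 0.08) over both sets, while Myh9, the heavy chain of non-muscle myosin IIA, had 1.66 (SE 0.10). Arhgap24, a GTPase-activating protein for Rac1, went from 62.7 ± 13.6 to 26.5 ± 3.26 CPM in set A (log2 fold change −1.24, SE 0.23, edgeR adjusted p = 0.000355) and stood at 41.5 ± 11.3 CPM in set B (adjusted p = 0.0624). The list's median log2 fold change was 0.85 in set A, close to the 0.88 of set B.

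Of 7 transcription factors of the podocyte, 0 passed in set A and 1, Foxd1, a forkhead factor of the renal stroma and of podocytes, passed in set B (log2 fold change 1.42, SE 0.44, edgeR adjusted p = 0.0237) and with both sets averaged (adjusted p = 0.0347), beside 22.3%, 22.8% and 26.4% of all genes tested. Foxd1 was low, at 5.42 ± 2.13 CPM in the controls and 14.6 ± 2.30 in set B (SD, n = 4), and the call in set B was lost without control replicate 1, 2 or 4. With both sets averaged, no gene of the list was called in 5 of 12 fits with 1 kidney left out, and up to 3 were called under the alternatives. Wt1, from the 7 members, was therefore the one podocyte transcription factor examined that was called in both sets.

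Podocyte-enriched secreted, membrane and signalling genes changed in both directions, with 2 of 11 higher in each set, 2 lower in set A and 3 lower in set B. Beside this, in set A 10.5% of all genes tested were called as higher and 11.7% as lower. For set B these shares were 10.9% and 11.9%, and 14.2% were lower with both averaged, so with 11 genes the counts are not far from these shares. The count in set A, 4 in all, was 2 without control replicate 2 or set A replicate 3. The genes that rose were Plce1, the phospholipase C epsilon of the podocyte, and Nes, the intermediate filament protein nestin. Clic5, an ezrin-associated protein of the foot process, fell from 116.9 ± 12.1 CPM to 63.5 ± 3.89 in set A and 68.2 ± 9.63 in set B (SD, n = 4). Vegfa, the growth factor that podocytes send to the glomerular endothelium and that tubules also make, fell from 712.7 ± 43.1 to 448.9 ± 71.5 and 451.6 ± 48.1 CPM. Angptl2, a secreted angiopoietin-like protein, passed in set B alone (log2 fold change −1.01, SE 0.20, edgeR adjusted p = 0.000903). Its log2 fold change in set A was −0.44 (adjusted p = 0.135), and it was not called between the sets. The median over the list, −0.38 for set A and −0.66 for set B, was opposite in sign to the median of the 7 members.

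Of 14 genes of the glomerular basement membrane and its receptors, 8 rose and 1 fell in set A, and 7 rose and 1 fell in set B. Over all genes tested, 10.5% and 10.9% were higher and 11.7% and 11.9% lower in these sets, so the single fall is not above the general share. With both sets averaged, the largest change was that of Itga3, the integrin alpha chain by which podocytes hold to laminin, which went from 47.7 ± 6.52 CPM to 196.1 ± 23.7 and 213.9 ± 26.6 (SD, n = 4). Cd151, the tetraspanin that pairs with this integrin, went from 5.35 ± 3.12 to 23.4 ± 7.30 and 19.4 ± 5.09 CPM. Lamc1, Lama5, Agrn, Itgb1 and Ilk rose in both sets as well, and Nid1 in set A alone (log2 fold change 0.75, edgeR adjusted p = 0.0231). Col4a3, a chain of the collagen IV network that podocytes make, fell from 65.9 ± 7.02 to 29.7 ± 6.08 CPM (set A) and 41.6 ± 6.48 CPM (set B). No gene of this or of the other podocyte lists was called between the sets.

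**Figure D4:**
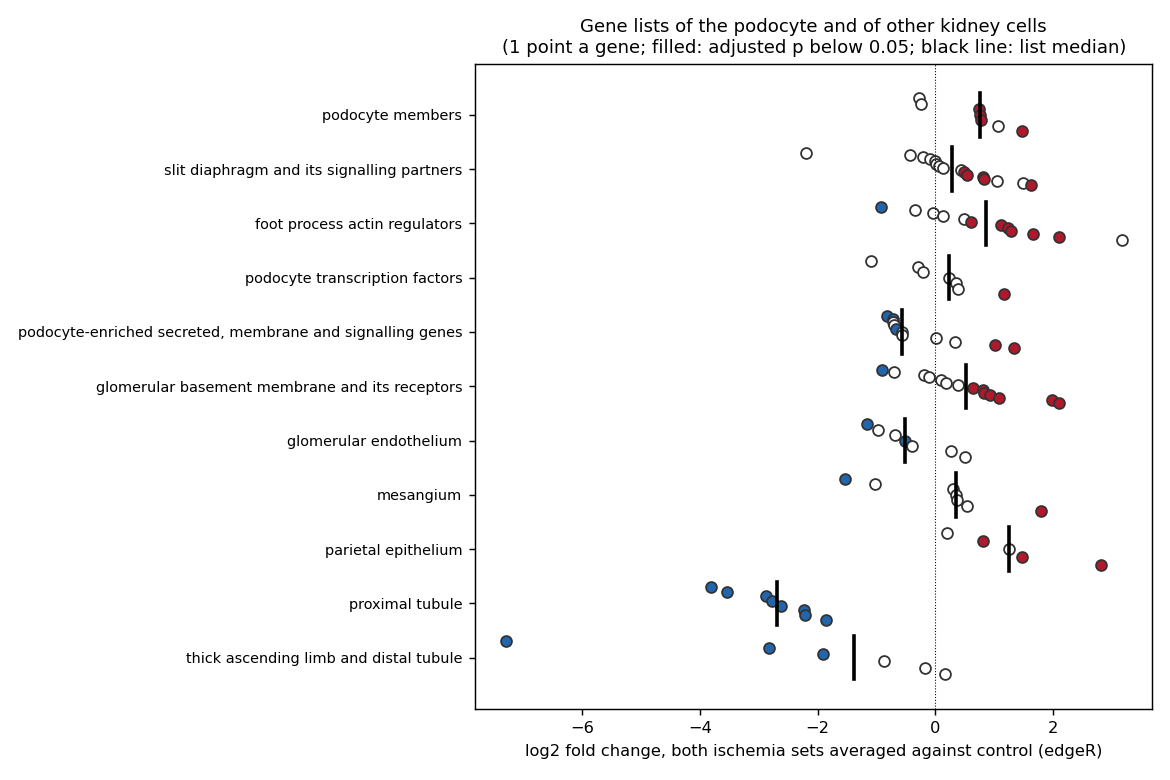
Log2 fold change with both ischemic sets averaged against control (x axis) for the 7 podocyte genes and for lists of podocyte, glomerular and tubular genes (y axis); each point is 1 gene, filled where it passed the adjusted p threshold of 0.05, and the black line is the list median. The median of the 7 genes lies at 0.76, and all proximal tubule markers lie below 0. Filled points lie on both sides of 0 in the actin, the secreted, membrane and signalling, and the basement membrane lists. They lie only above 0 for the 7 genes, the slit diaphragm partners and the transcription factors.

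Markers of other cells of the kidney changed as well, and their counts stand beside 10.5% (set A) and 10.9% (set B) of all genes tested called as higher and 11.7% and 11.9% called as lower. The 8 proximal tubule markers, led by Slc34a1 and Gatm, fell in both sets, and their summed level, between 7590 and 8554 CPM in control kidneys, was between 741 and 1355 CPM in set A and between 451 and 1505 CPM in set B. CPM are shares of a library scaled by TMM, and the part of the tubular fall in the rise of the 4 members was not tested. The summed level of the 7 members themselves was 278.0 to 337.6 CPM in control kidneys, 395.3 to 530.5 CPM in set A and, for set B, 433.1 to 588.6 CPM. The proximal tubule markers ran against Podxl within the groups too, with a median correlation of −0.50. Of the thick ascending limb and distal tubule markers, 2 of 6 fell in set A and 3 of 6 in set B. Slc12a1, their most abundant gene without ischemia, had means of 1512 CPM (control), 179.5 CPM (set A) and 256.1 CPM (set B). Slc12a3, the most abundant of the 6 after ischemia, had means of 964.7, 827.4 and 876.9 CPM in the same order. Umod had 114.8, 128.3 and 128.5 CPM, and neither of these last genes was called in either set. Of 6 tubular injury markers, 5 rose in each set.

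Markers listed for other glomerular cells and for further cells were read against the same shares of all genes tested, 10.5% and 10.9% called as higher and 11.7% and 11.9% as lower in sets A and B. Of 7 tested markers of endothelium, which also makes Podxl, none rose and 1 fell in set B (Tek, log2 fold change −1.47, SE 0.33, edgeR adjusted p = 0.00224). They were listed for the glomerulus, but the part of glomerular and of other endothelium in their values was not tested. Without set B replicate 3, 2 fell in set B. Their summed level was 149.0 to 180.4 CPM in control kidneys, 86.9 to 149.5 CPM in set A and, for set B, 64.1 to 131.6 CPM. In set A the count was 0 with this test but 1 in 4 of 8 alternatives, limma-trend among them, and without set A replicate 3 or set B replicate 3, and 2 without set B replicate 4. With both sets averaged, 2 markers fell, Tek and Kdr (adjusted p = 0.0497 for Kdr), but the count was 1 in 5 of 7 alternatives and in 11 of 12 fits with 1 kidney left out. Kdr, the endothelial receptor for VEGF-A and the second most abundant of them, had 41.0 ± 1.41, 27.4 ± 4.59 and 29.8 ± 6.93 CPM (SD, n = 4). Of 5 parietal epithelium markers, 3 rose in each set (Cldn1, Pax8 and Ncam1), and the summed level was 397.8 to 487.1 CPM in control kidneys, 496.4 to 685.5 CPM in set A and, for set B, 606.2 to 715.0 CPM. Pax8 is made by tubules as well. Of 7 mesangium markers, Acta2, a smooth muscle actin shared with vessels and myofibroblasts, rose in both sets and Itga8 fell in set A, counts near the general shares. The mesothelium is a further site of Wt1. Of its markers, Upk1b had 0.502 to 3.36 CPM in the controls, at most 4.28 CPM in set A kidneys and 3.24 in those of set B, and was not called. Upk3b and Lrrn4 had no read above the floor of 3 counts, and Msln was at 0 in the controls and set A and at most 1.52 CPM in set B. Krt19, the marker that rose, had means of 9.60 CPM (control), 142.1 CPM (set A) and 230.6 CPM (set B). It is also made by injured tubules, and which cells made it here was not tested. The mesothelium list summed to between 7.45 and 19.4 CPM without ischemia. After ischemia its sums were 91.2 to 179.6 CPM (set A) and 126.2 to 444.1 CPM (set B). Of 3 tested fibroblast markers, 2 rose (Col1a1 and Col3a1), and of 4 tested leukocyte markers none was called. These 4 were low, with group means of at most 4.39 CPM (Ptprc, set B). The SE of their log2 fold changes ran from 1.09 (Ptprc) to 2.41 (Itgam), too wide to tell whether leukocytes changed. The medians over these 4, 0.87 (set A) and 1.23 (set B), were positive. The part of these cell types in the values of Podxl, Wt1 and Cd2ap was not tested.

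The total counts of the kidneys lay between 15367342 and 44793350 and the scaling factors between 0.968 and 1.03. Replicate 4 of set B stood apart from the other 11 kidneys on the second principal component of log2 CPM. Without it, 4 of 7 members were still called in set A and with both sets averaged, but 2 of 7, Cd2ap and Podxl, in set B, where Synpo had a log2 fold change of 0.48 (edgeR adjusted p = 0.137) and Wt1 of 0.72 (adjusted p = 0.0568).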

How the data were processed

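Kidney RNA of 12 mice was sequenced, 4 per group. The deposited table holds raw counts per gene. Per the labels and the study's methods, single reads of stranded libraries were mapped to mm10 with STAR and counted with HTSeq after FastQC. The submitters' processing notes name these tools and edgeR; their versions, the annotation release and the strand setting of the counting are not given in the sources used here. All 12 columns of the table were used.

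Here genes were filtered with edgeR 4.0.16 (R 4.3.3) at its default minimum count of 10 and total of 15, libraries were scaled by TMM, and 1 negative binomial model with 3 groups was fitted to all 12 kidneys. Two-sided quasi-likelihood F-tests compared each set, and both averaged, with control, and set B with set A. P-values were adjusted by Benjamini and Hochberg over 11664 genes. SE were derived from the F statistic. CPM used the TMM-scaled totals, RPKM the merged exons of GENCODE. Total counts lay between 15367342 and 44793350, so 3 counts correspond to 0.0661 to 0.190 CPM. Exact permutation tests, 28 in all, compared CPM of single members, and their p-values are unadjusted. Correlations used log2 CPM with a prior count of 2. The genes named are the 7 members; in each other podocyte list those called in both sets (at most the 6 with the largest change) or in 1 set; Kirrel and Kirrel2; the most abundant markers of other cells; and the 5 genes most like the members. Some genes that this rule names are not reported here. Other marker genes that are singled out were chosen after their values were seen. The members and lists were chosen with earlier results of these data known, and the counts over lists are descriptions. Motif letters were searched in the RefSeq promoter table. Alternatives were DESeq2 1.42.0, limma-trend (limma 3.58.1), other scalings and filters, a replicate block, fits restricted to the groups compared, and leaving out each kidney. Python 3.11.15, pandas 2.3.3, NumPy 2.4.6 and SciPy 1.17.1 were used.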

Additional observations from a re-analysis of the deposited data

How the results depend on the processing

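Apart from left-out kidneys, 210 of 217 recomputed fold changes of single members kept their direction and their side of the threshold, 2 lost the call (Wt1 in set A with limma-trend, Synpo in set B with the replicate block) and 5 turned direction, all for Ptpro in set A, which was not called: 0.0053 with a filter of more than 1 CPM in 4 kidneys, 0.14 with limma-trend, 0.0057 with only the groups compared, 0.29 with the replicate block and 0.033 with upper-quartile factors. With 1 kidney left out, 303 of 336 kept both, 24 lost the call and 9 turned direction. The called members numbered 2 to 4 in set A (2 without control replicate 3, control replicate 4 or set A replicate 3), 1 to 4 in set B (1, Cd2ap, without set B replicate 3; 2 without control replicate 3, control replicate 4 or set B replicate 4), 3 to 4 with both averaged and 0 between the sets. The turned directions came from members whose change was not called, with left-out ranges of −0.54 to 0.71 for Ptpro in set A, −1.14 to 0.28 in set B, −0.59 to 0.49 with both averaged and −1.10 to 0.12 between the sets, −0.10 to 0.0043 for Magi2 between the sets and −0.17 to 0.22 for Wt1 between the sets. The cause was not tested. Levels per length moved with the longest transcript as length, to 13.94 RPKM for Magi2, 7.87 for Cd2ap, 10.16 for Synpo and 13.66 for Wt1. Of the 5 genes most like the members, 3 were shared under Spearman correlation.

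The labels number replicates 1 to 4 in each group without saying that a number marks a shared day or litter. Of 12 same-numbered pairs none had a correlation of deviations over 0.1 (−0.055 to 0.045), and 2 of 12 kidneys correlated best with their own number, so the samples share only a number. With the replicate block, 2491 genes were called in set A, 2531 in set B, 2974 with both averaged and 1 between the sets, and 4 members in set A and 3 in set B, where Synpo had a log2 fold change of 0.64 and an adjusted p of 0.0726. Nphs1 had the fewest reads of the members, 0 to 135 per kidney.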
